A study of Mus musculus with 3 samples.

Results

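The secreted WNT inhibitors and the receptor gene *Kremen1* were examined in RNA of the embryonic mouse rostrum, the anterior part of the head. The set was defined by gene symbol and holds 10 of the 24062 genes in the tables of counts. These are 3 genes of the dickkopf family (*Dkk1*, *Dkk2*, *Dkk3*), 4 genes of the secreted Frizzled-related family (*Sfrp1*, *Sfrp2*, *Sfrp5* and *Frzb*), *Wif1*, *Sostdc1* and *Kremen1*. The tables compare *tuft* with wild type. The *tuft* embryos were homozygous for the *tuft* allele of *Tet1*, a spontaneous nonsense mutation in a gene for a methylcytosine dioxygenase, and had a neural tube defect with curled neural folds. The wild-type embryos came from 3H1 Balb, the strain in which the allele arose, and the labels put both groups at E9 with 18 to 22 somites. RNA of 3 embryos was pooled for each genotype, which is represented by 1 column of counts. No value below therefore has a replicate error, and no test between the genotypes was possible. GEO holds 2 *tuft* records, and nothing in the sources ties the *tuft* counts to one of them.

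WNT proteins signal by binding Frizzled receptors, and in the β-catenin pathway also the co-receptors LRP5 and LRP6. The secreted inhibitors act outside the cell at either step. SFRP proteins and WIF1 bind the WNT ligands themselves, whereas DKK1, DKK2 and SOSTDC1 bind LRP5 and LRP6, and Kremen proteins are membrane receptors of DKK that help to remove LRP6 from the cell surface. In the mouse, DKK1 is needed for the head to form, and low WNT activity marks the anterior end of the neural plate.

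Promoter sequences from RefSeq (GRCm38.p6) were found for 6 of the 10 genes. Each covers 250 bases before and 50 bases after the transcript start that the sequence table uses. For *Dkk1*, *Sfrp5*, *Frzb* and *Wif1* this is the outer end of the gene in the RefSeq annotation, but for *Dkk2* it lies 26 bases and for *Sfrp2* 571 bases inside the annotated gene, so that the *Sfrp2* window is wholly within the gene span. Shown here, 5′ to 3′ on the strand of the gene, are those of the 4 genes among them that were called higher in *tuft* (below). Capitals mark TATAAA and the TCF/LEF core motif, which is CTTTG followed by 2 bases that are each A or T, both searched on either strand. *Dkk1* is at chr19:30549447-30549746 (minus strand), *Dkk2* at chr3:132085042-132085341 (plus strand), *Sfrp2* at chr3:83766071-83766370 (plus strand) and *Wif1* at chr10:121033754-121034053 (plus strand).
Dkk1: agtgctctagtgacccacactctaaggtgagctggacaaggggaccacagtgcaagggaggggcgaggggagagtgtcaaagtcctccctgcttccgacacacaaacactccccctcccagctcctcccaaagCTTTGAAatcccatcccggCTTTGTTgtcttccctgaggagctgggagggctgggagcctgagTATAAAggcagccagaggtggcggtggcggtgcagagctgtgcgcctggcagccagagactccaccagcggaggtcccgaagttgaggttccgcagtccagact
Dkk2: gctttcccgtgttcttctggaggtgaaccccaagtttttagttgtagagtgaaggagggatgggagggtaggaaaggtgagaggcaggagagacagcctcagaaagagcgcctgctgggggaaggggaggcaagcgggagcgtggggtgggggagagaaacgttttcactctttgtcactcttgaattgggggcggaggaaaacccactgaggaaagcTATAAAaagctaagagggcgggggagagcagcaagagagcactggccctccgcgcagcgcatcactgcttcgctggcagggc
Sfrp2: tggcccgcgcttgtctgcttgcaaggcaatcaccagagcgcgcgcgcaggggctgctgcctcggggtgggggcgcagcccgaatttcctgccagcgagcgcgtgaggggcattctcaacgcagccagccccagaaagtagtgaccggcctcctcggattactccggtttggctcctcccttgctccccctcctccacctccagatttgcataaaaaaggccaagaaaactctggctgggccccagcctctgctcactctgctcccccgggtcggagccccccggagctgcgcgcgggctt
Wif1: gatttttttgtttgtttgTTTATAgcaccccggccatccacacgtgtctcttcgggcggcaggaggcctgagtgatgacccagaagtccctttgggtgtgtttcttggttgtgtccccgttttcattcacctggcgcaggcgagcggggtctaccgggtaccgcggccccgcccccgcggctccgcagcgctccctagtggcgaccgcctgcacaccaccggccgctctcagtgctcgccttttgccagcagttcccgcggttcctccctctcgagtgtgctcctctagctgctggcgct

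The *Dkk1* promoter held 2 TCF/LEF motifs, CTTTGAA beginning 117 bases before the start and CTTTGTT beginning 98 bases before it. Neither motif overlapped the TATAAA, which began 54 bases before the start. The *Dkk2* promoter held TATAAA 32 bases before the start used, directly outside the annotated gene, and *Wif1* held it on the opposite strand far upstream. No TCF/LEF motif was found in the windows of *Dkk2*, *Sfrp2*, *Sfrp5*, *Frzb* or *Wif1*. Of all 32851 promoter windows of this length, 16.9% held a TCF/LEF motif and 13.6% held TATAAA on either strand. The windows also differed in CpG, the dinucleotide in which methylated cytosine, the substrate of TET1, is mostly found. *Dkk1* had 9 CpG and *Dkk2* 11, *Sfrp5* had 15, and *Frzb*, *Sfrp2* and *Wif1* had 20, 22 and 25. The median of all windows was 7, with quartiles at 3 and 20. The deposited counts carry no measurement of methylation or of a factor bound at these sites.

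The *tuft* library held 6433067 counts on genes and the wild-type library 14251942, or 2.22 times as many. *Tet1* had 32 *tuft* counts and 435 wild-type counts, a fold change of 0.214 (0.145 to 0.307). Fold changes are *tuft* over wild type after normalization by TMM (trimmed mean of M-values), and the range in parentheses is an exact 95% binomial interval. It covers counting error only, since reads without molecular identifiers are not independent molecules and the spread between pools was not measured. A gene was called when this whole interval lay above 2-fold or below 0.5-fold, provided that the gene had 10 or more counts over both libraries. Genes above this minimum are named tested below, although no replicates allow a statistical test. No count was seen in *tuft* for 542 (5.36%) of the 10121 genes that reached 100 counts in wild type. The reverse, no count in wild type, was seen for 6 (0.084%) of the 7143 genes that reached 100 counts in *tuft*. A gene at 0 in *tuft* was thus far more common than a gene at 0 in wild type. All 10 genes of the set had counts in both libraries. The genes not placed above lie at chr7:112116019-112159482 (*Dkk3*), chr8:23411383-23449632 (*Sfrp1*), chr19:42197971-42202252 (*Sfrp5*), chr2:80411970-80447396 (*Frzb*), chr12:36314169-36318452 (*Sostdc1*) and chr11:5191551-5261713 (*Kremen1*) in GRCm38.p6.

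All 10 genes passed the minimum of counts, and 6 of them were called higher in *tuft* (*Wif1*, *Dkk2*, *Dkk1*, *Sostdc1*, *Dkk3* and *Sfrp2*). None was called lower, and 4 (*Frzb*, *Sfrp5*, *Kremen1* and *Sfrp1*) were not called. Of all 13979 genes tested, 17.4% were called higher and 29.8% lower. The median log2 fold change of the 10 genes was 1.41, against -0.45 over all genes tested. For these medians and those of gene lists below, counts under 3 in a library were set to a floor of 3. The floor changed no count of the 10 genes. Genes without a *tuft* count were raised by it, so the median over all genes tested may be too high. The spread of fold changes differed with the level of a gene, and therefore the share was also taken over comparable genes, in ranges set after the values had been seen. Among the 9508 genes with a mean normalized level between the lowest and the highest of the set, 19.9% were called higher and 26.8% lower. Among 8941 genes that reached 37 counts in *tuft*, the lowest count of the set in that library, 25.9% were called higher and 13.3% lower. Their median log2 fold change, taken without the floor, was 0.27. The symbols of the set had been chosen with results of these libraries known, so that these shares describe the set and do not test it. With library totals alone in place of TMM, the log2 fold changes of all genes shift by -0.39, 24.7% rather than 36.8% of all calls are in the higher direction, and *Dkk1*, *Dkk2* and *Wif1* are the 3 genes of the set that are still called, while 12.4% of all genes tested are called higher. When the whole interval has to lie above 4-fold, *Dkk2* and *Wif1* are called, against 6.94% of all genes tested. RNA of a whole rostrum cannot tell more cells that express a gene from more RNA per cell.

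**Figure D1:**
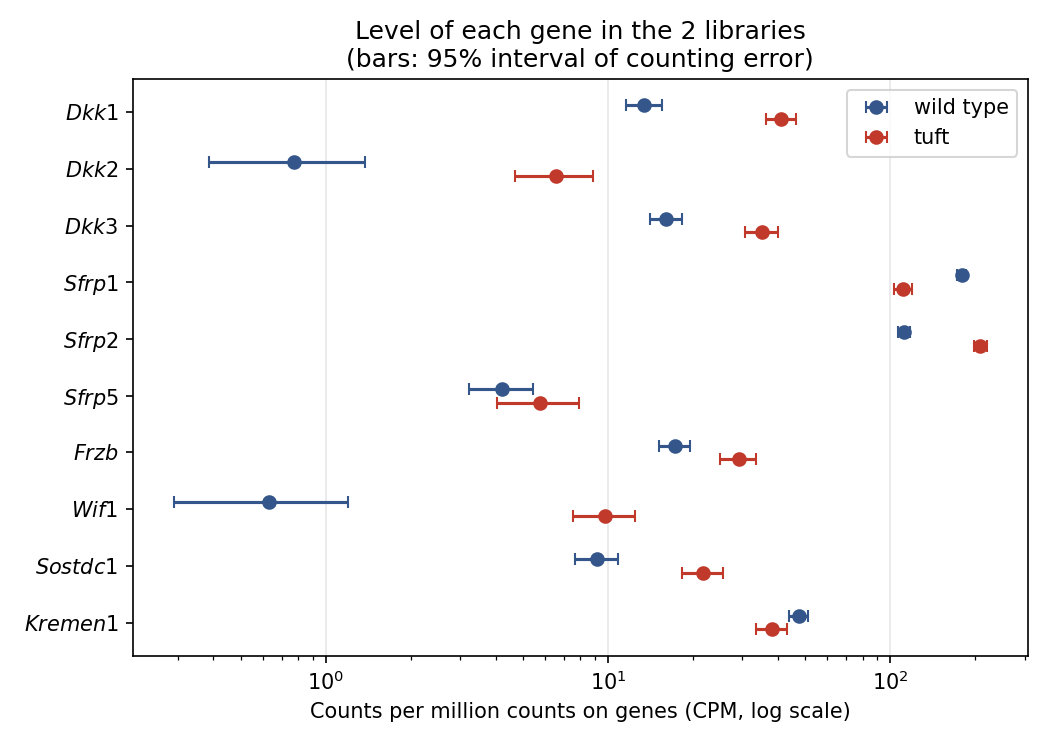
Level of each of the 10 genes in the wild-type (blue) and *tuft* (red) library, in counts per 1000000 counts on genes (CPM) on a log scale, before TMM. Points are the single libraries and bars the 95% interval of counting error. *Sfrp1* and *Kremen1* are the genes whose red point lies left of the blue one, and *Wif1* and *Dkk2* have the lowest wild-type levels (0.631 and 0.772 CPM).

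The 3 dickkopf genes were all called higher in *tuft*. *Dkk1*, the inhibitor required for the head, had 264 *tuft* counts and 192 wild-type counts, or 41.0 and 13.5 counts per 1000000 counts on genes (CPM). The *tuft* count was thus the higher one although this library was the shallower. Its fold change was 4.0 (3.31 to 4.85), and 90.8% of all genes tested had a lower one. *Dkk2*, which binds LRP6 as DKK1 does and can activate or inhibit signaling depending on the cell, had 42 *tuft* counts and 11 wild-type counts (6.53 and 0.772 CPM). Its fold change of 11.1 had a wide interval (5.63 to 23.9), because the wild-type count was small. *Dkk3*, a divergent member of the family that does not bind LRP6 in the usual way, had 226 and 230 counts (35.1 and 16.1 CPM) and a fold change of 2.86 (2.37 to 3.45). The family together had 532 *tuft* counts and 433 wild-type counts, a fold change of 3.58 (3.15 to 4.07). Within the family, *Dkk1* took 49.6% of the counts in *tuft* (45.3 to 54.0) and 44.3% in wild type (39.6 to 49.2), and these intervals overlap. The share of *Dkk2* was 7.89% (5.75 to 10.5) against 2.54% (1.27 to 4.5), and that of *Dkk3* 42.5% (38.2 to 46.8) against 53.1% (48.3 to 57.9), and neither pair of intervals overlaps.

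*Wif1*, which encodes a secreted protein with a WNT-binding domain of its own, showed the highest fold change of the set. It had 63 *tuft* counts and 9 wild-type counts (9.79 and 0.631 CPM), a fold change of 20.4 (10.1 to 46.6). Of the genes tested, 207 had a higher fold change than *Wif1* and 375 a higher one than *Dkk2*. Both genes were near the limit of detection in wild type, where a count of 0 would allow a level of up to 0.210 CPM. To set them beside genes of the same wild-type count, the 298 tested genes with 9 to 11 counts in wild type were taken, a range chosen after the values had been seen. Of these, 32 (10.7%) were called higher, 212 had no count in *tuft*, and 9 had a fold change above that of *Wif1*. *Sostdc1*, a cystine-knot protein that binds LRP5 and LRP6 and also inhibits BMP, had 140 *tuft* counts and 130 wild-type counts (21.8 and 9.12 CPM). Its fold change was 3.14 (2.45 to 4.01).

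**Figure D2:**
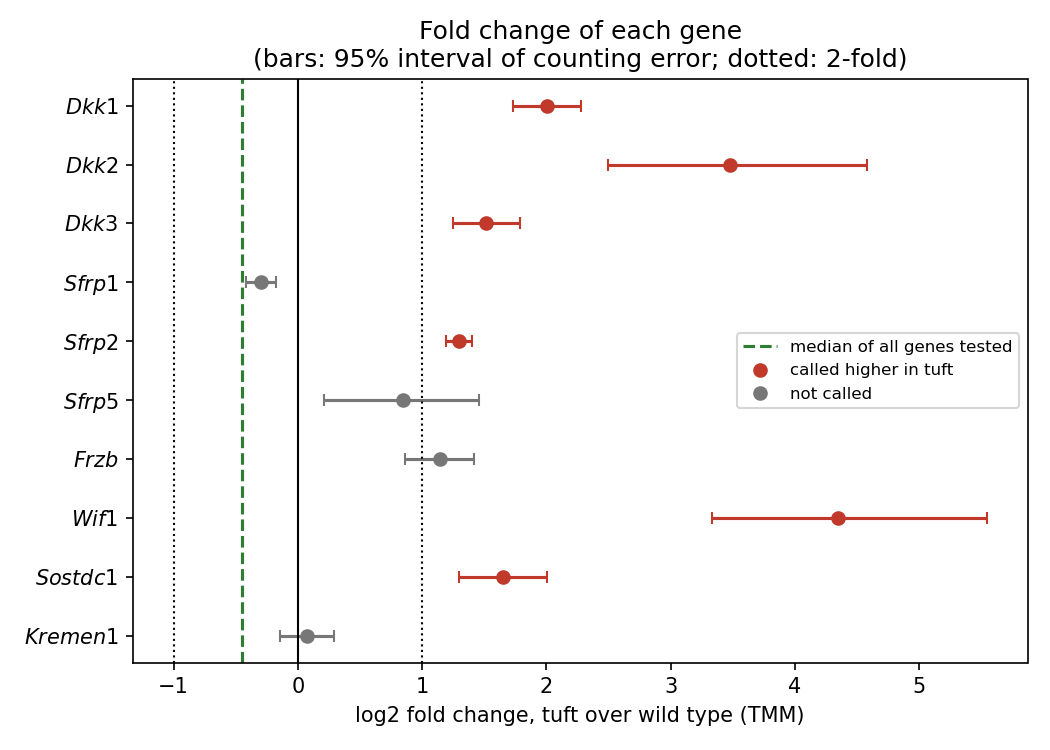
Log2 fold change of *tuft* over wild type for each gene, after TMM, with the 95% interval of counting error. Red points were called higher, with the whole interval right of the dotted line at 2-fold, and grey points were not called. The dashed line is the median of all 13979 genes tested (-0.45), for which counts under 3 were set to 3. All 10 points lie to its right, although the interval of *Sfrp1* comes close to it.

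The SFRP proteins share a cysteine-rich domain with the Frizzled receptors, and the 4 genes of the set that encode them gave fold changes on both sides of 1. *Sfrp2* had 1345 *tuft* counts and 1597 wild-type counts (209 and 112 CPM) and was called higher, with a fold change of 2.45 (2.28 to 2.64). *Sfrp1*, a close relative that overlaps with it in function in the embryo, had 718 and 2561 counts (112 and 180 CPM). Its fold change was 0.816 (0.75 to 0.887), below 1 by more than counting error but not near the limit for a call. *Frzb*, also known as *Sfrp3* and expressed in neural crest and cartilage precursors, had 187 and 247 counts (29.1 and 17.3 CPM). The fold change of *Frzb* was 2.2 (1.81 to 2.68), and it was not called because the lower end of the interval is under 2-fold. *Sfrp5* had the fewest counts of these 4 genes, with 37 and 60 counts (5.75 and 4.21 CPM), a fold change of 1.80 (1.16 to 2.75) and no call. The summed counts of the 4 genes, without *Sfrp4* (none in *tuft* and 12 in wild type), were 2287 in *tuft* and 4465 in wild type, and the fold change of the sum was 1.49 (1.42 to 1.57).

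The make-up of these counts does not depend on the normalization, since it is taken within a library. In wild type *Sfrp1* held 57.4% of them (55.9 to 58.8) and *Sfrp2* 35.8% (34.4 to 37.2). In *tuft* the order was turned, with 31.4% (29.5 to 33.3) for *Sfrp1* and 58.8% (56.8 to 60.8) for *Sfrp2*. The ratio of *Sfrp2* to *Sfrp1* counts was 1.87 (1.71 to 2.05) in *tuft* and 0.624 (0.585 to 0.664) in wild type, or 3.00 times as high in *tuft*. The ratio of *Frzb* to *Sfrp1* was also higher in *tuft*, at 0.260 (0.221 to 0.306) against 0.0964 (0.0843 to 0.110), and so was that of *Sfrp5* to *Sfrp1*, at 0.0515 (0.0360 to 0.0717) against 0.0234 (0.0178 to 0.0303). The ratio of *Sfrp2* to *Frzb*, in contrast, was 7.19 (6.17 to 8.43) in *tuft* and 6.47 (5.65 to 7.42) in wild type, and these intervals overlap. *Sfrp1* was thus lower in *tuft* relative to each of the other 3 genes. These ratios are among 11 pairs that were computed after the counts had been seen.

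**Figure D3:**
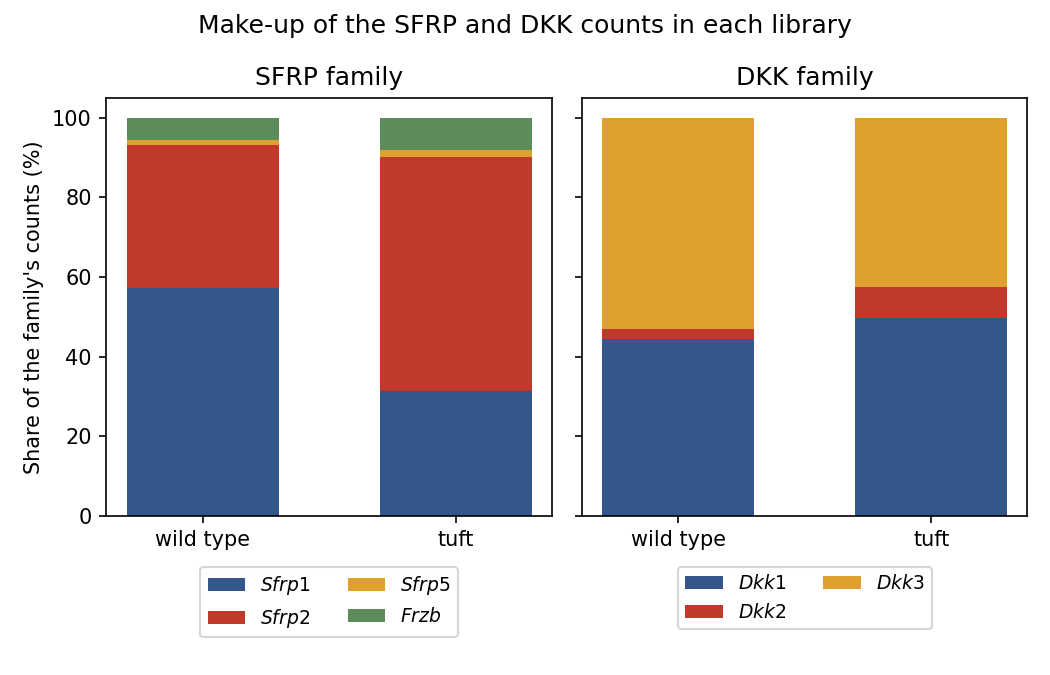
Share of each gene in the summed counts of its family, in percent, for the wild-type and *tuft* library. *Sfrp1* (blue, left) is the larger part of the counts of the 4 SFRP genes in wild type (57.4%) and *Sfrp2* (red, left) in *tuft* (58.8%), and *Dkk2* (red, right) grows from 2.54% to 7.89% of the DKK counts.

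*Kremen1*, the receptor through which DKK1 acts on LRP6 more strongly, was not called. It had 245 *tuft* counts and 677 wild-type counts (38.1 and 47.5 CPM). The fold change of 1.05 had an interval that includes 1 (0.907 to 1.22), and its direction turned with library totals alone (log2 fold change -0.32). The annotation places a small nuclear RNA gene and a long noncoding RNA gene, *Gm25142* and *Gm46268*, within the span of *Kremen1*, and neither symbol has a row in the tables. No gene of the RefSeq table overlaps any of the other 9 genes. The count ratio of *Dkk1* to *Kremen1*, the ligand gene to the receptor gene, was 1.08 (0.902 to 1.29) in *tuft* against 0.284 (0.240 to 0.333) in wild type. The ratio of *Dkk3* to *Kremen1* was 0.922 (0.766 to 1.11) against 0.340 (0.291 to 0.395). Among the genes for secreted proteins of the set, the ratio of *Dkk1* to *Dkk3* was 1.17 (0.974 to 1.40) in *tuft* and 0.835 (0.686 to 1.02) in wild type. The ratio of *Sostdc1* to *Dkk1* was 0.530 (0.429 to 0.653) and 0.677 (0.538 to 0.850). In both of these pairs the intervals overlap, and the ratio in *tuft* was 1.40 and 0.783 times that in wild type, closer to 1 than the 3.80 times of *Dkk1* to *Kremen1*. The ratio of *Dkk2* to *Dkk1*, in contrast, was 0.159 (0.112 to 0.221) in *tuft* and 0.0573 (0.0281 to 0.105) in wild type. These intervals do not overlap, and the ratio was 2.78 times as high in *tuft*.

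Levels of different genes were compared per kilobase of the longest coding transcript in GENCODE vM1. In wild type *Sfrp2* (55.9 CPM per kb) and *Sfrp1* (41.1) were highest. *Kremen1* followed with 9.78. *Dkk1* (5.55), *Frzb* (5.50), *Sostdc1* (5.21) and *Dkk3* (4.81) came next in this order, and each of these neighbors overlapped in counting error. *Sfrp5* had 2.22 CPM per kb, and *Wif1* (0.275) and *Dkk2* (0.209) were lowest and overlapped. In *tuft* the highest level was again that of *Sfrp2*, at 104 CPM per kb, ahead of *Sfrp1* at 25.5. *Dkk1* took the third place with 16.9, apart from *Sostdc1* at 12.4. *Dkk3* (10.5), *Frzb* (9.23) and *Kremen1* (7.84) followed, each overlapping with its neighbor, and then *Wif1* (4.27), *Sfrp5* (3.03) and *Dkk2* (1.77), again with overlap between neighbors. *Kremen1* thus stood at rank 3 of 10 in wild type and rank 7 in *tuft*. With coding length in place of transcript length, *Sfrp1* rather than *Sfrp2* is highest in wild type, and *Wif1* rather than *Dkk2* is lowest. The wild-type order after *Kremen1* then becomes *Frzb*, *Dkk1*, *Dkk3* and *Sostdc1*. In *tuft*, *Sfrp5* rather than *Dkk2* is lowest by coding length. *Kremen1* keeps its ranks of 3 and 7.

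**Figure D4:**
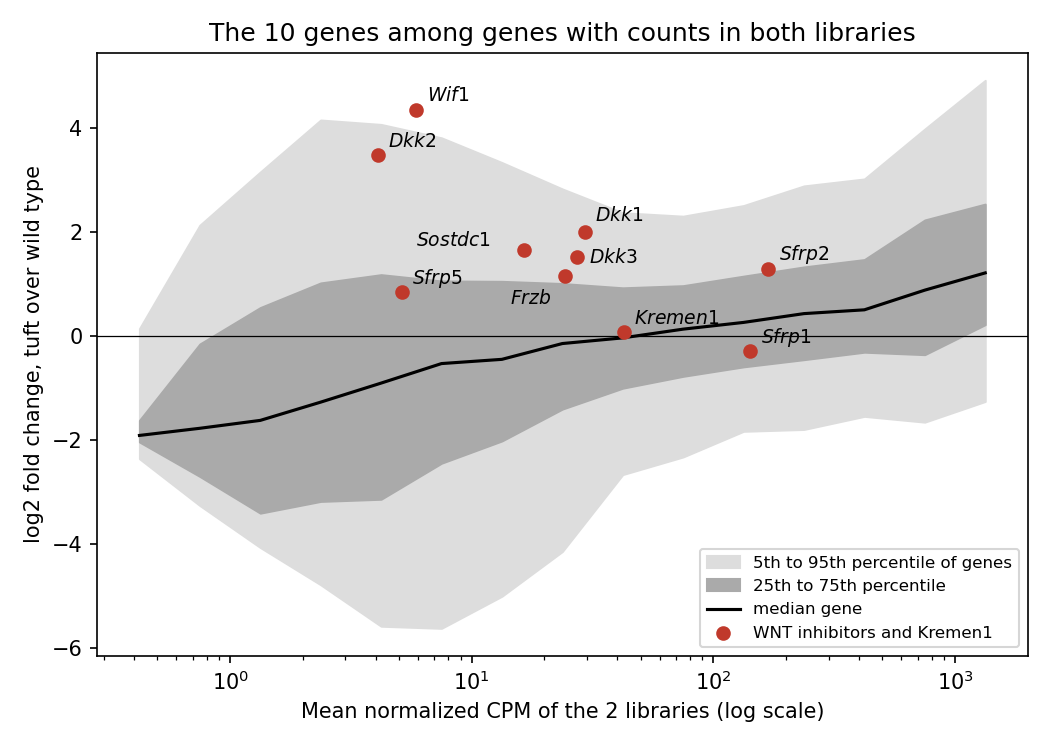
Log2 fold change of the 10 genes (red) against their mean normalized CPM, over bands that hold the middle 90% (light grey) and the middle 50% (dark grey) of tested genes with counts in both libraries. The light band is widest at the levels of *Wif1* (4.35), *Sfrp5* (0.84) and *Dkk2* (3.47), and *Sfrp2* (1.29) and *Sfrp1* (-0.29) lie apart at similar high levels.

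Other extracellular or membrane inhibitors of WNT signaling gave no common direction. Of 16 such genes, 12 were tested, and 2 were called higher, 2 lower and 8 neither way, with a median log2 fold change of -0.46. This median is the value of *Sfrp4* and *Shisa3*, which each had no *tuft* count and 12 wild-type counts. It therefore reflects the floor of 3 counts and is not a measured fold change. Over all genes tested, the background for this list and those below, 17.4% were called higher and 29.8% lower, with a median of -0.45. *Draxin*, a secreted guidance protein that also inhibits WNT through LRP6, had 456 *tuft* counts and 147 wild-type counts, a fold change of 9.03 (7.48 to 11). *Apcdd1*, a membrane inhibitor that binds WNT and LRP5, had 1185 and 1538 counts and a fold change of 2.24 (2.08 to 2.42). The related ubiquitin ligases *Znrf3* and *Rnf43*, which remove Frizzled receptors from the cell surface, were both called lower. *Znrf3* had 4 *tuft* counts and 397 wild-type counts, a fold change of 0.0293 (0.00795 to 0.0757). *Rnf43* had none in *tuft* and 65 in wild type and was at least 7.44-fold lower, with 3 counts taken as the limit for a library without any. The relatives of the set that it does not include had few counts. *Kremen2* had 15 *tuft* counts and 10 wild-type counts, and *Sfrp4*, *Dkkl1* and *Dkk4* had none in *tuft* and 12, 4 and 2 in wild type. *Kremen2*, the second Kremen receptor, had a fold change of 4.37 (1.84 to 10.9), which was not called.

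Of the 15 receptors and co-receptors, 3 were called higher and 2 lower. *Fzd1*, a Frizzled receptor, was the highest of those called with a fold change of 5.01 (4.58 to 5.47), and *Ror1*, a receptor of WNT5A, was the lowest, at least 20.3-fold lower with no count in *tuft* and 177 in wild type. Of the co-receptors that DKK1 and SOSTDC1 bind, which are given here outside the rule for naming, *Lrp6* had 97 *tuft* counts and 1351 wild-type counts and was called lower (0.209, 0.168 to 0.257). *Lrp5* had 1187 and 2572 counts and was not called (1.34, 1.25 to 1.44). Of 19 WNT ligand genes, 16 were tested, with 5 called higher and 5 lower. *Wnt4* was the highest of these with at least 100 counts (3.92, 3.13 to 4.91), and *Wnt2b* the lowest (0.200, 0.107 to 0.343). Of 6 tested genes of the R-spondins, which enhance WNT signaling, and their Lgr receptors, 1 was called higher and 2 lower, and *Rspo2* had 8 *tuft* counts and 190 wild-type counts (0.123, 0.0522 to 0.247). Both directions thus occurred among the genes for WNT ligands, their enhancers and their receptors, whereas calls among the 10 genes of the set were in the higher direction only. The set and the lists are not alike, because every gene of the set had 37 or more *tuft* counts and the lists also hold genes with fewer. Of all genes that reached 37 *tuft* counts, 25.9% were called higher and 13.3% lower.

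Genes that β-catenin signaling is known to induce also gave no common direction. Of 9 tested genes, 2 were called higher and 1 lower, and the median log2 fold change was 0.23. *Sp5*, a transcription factor, had 356 *tuft* counts and 123 wild-type counts (8.43, 6.85 to 10.4), and *Nkd1*, a feedback inhibitor, had 808 and 652 (3.61, 3.25 to 4.01). Its relative *Nkd2* had 2 against 236 counts, with a fold change of 0.0247 (0.00297 to 0.0901). *Axin2*, a widely used reporter of the pathway that is named here outside the rule, had 195 and 1131 counts and a fold change of 0.502 (0.429 to 0.585) without a call.

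**Figure D5:**
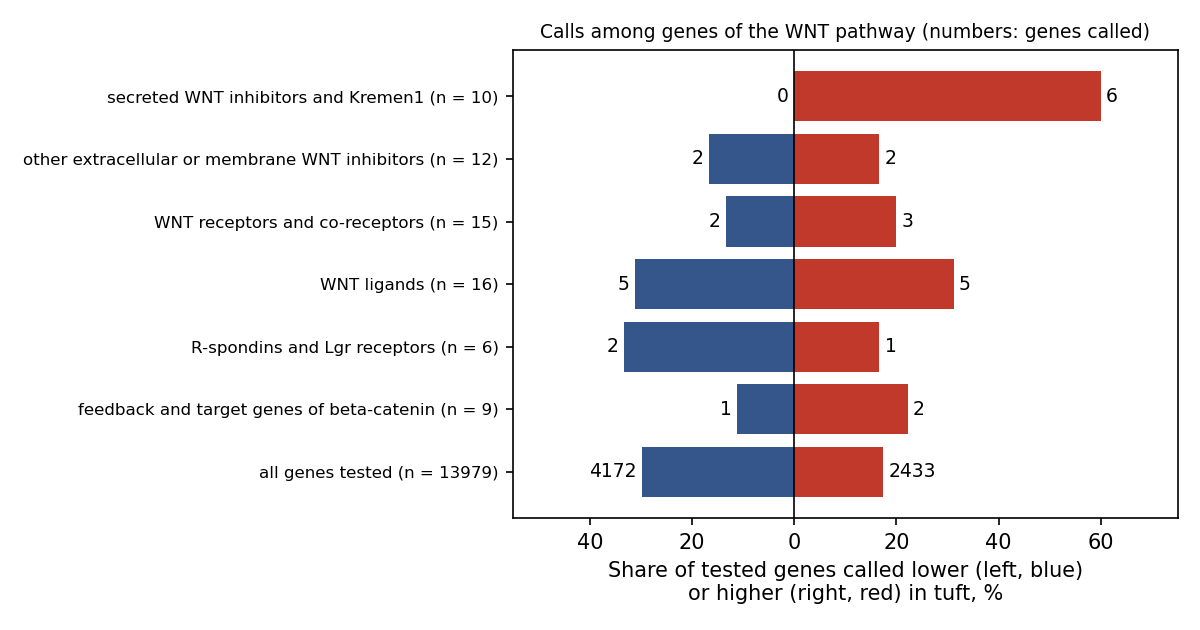
Share of tested genes called lower (blue, left) or higher (red, right) in *tuft*, in percent, for the 10 genes, for 5 lists of other WNT pathway genes and for all genes tested, with the number of genes called at the end of each bar. The 10 genes have 6 calls in the higher direction and none in the lower one, and the other lists have calls in both directions. Each of the 10 genes had 37 or more *tuft* counts, and the other lists also hold genes with fewer.

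The tissue markers show how the 2 libraries differed in other respects. Their calls stand beside 17.4% called higher and 29.8% called lower over all genes tested. Of 8 anterior neural markers, 2 were called higher and 2 lower, their summed level was 780 CPM in *tuft* and 716 in wild type, and *Hesx1* had no count in *tuft*. *Otx2*, a defining gene of the anterior head, had a fold change of 1.37 (1.27 to 1.48) without a call. The forebrain and neural genes *Six3* (4.14, 3.81 to 4.5) and *Sox1* (3.16, 2.87 to 3.47) were called higher, and *Rax*, an eye field gene, had 2 *tuft* counts and 389 wild-type counts and was called lower (0.0150, 0.00181 to 0.0544). *Pax6* was not called (0.514, 0.452 to 0.584). Trunk markers summed to 0.155 and 2.32 CPM and heart markers to 0.311 and 4.42 CPM, with 5 of 6 genes at 0 in *tuft* in each list. Markers of head mesenchyme and neural crest, where *Frzb* is known to be expressed, were called higher for 3 and lower for 1 of 9 genes. They summed to 567 and 301 CPM, of which *Sox10* made up 199 and 23.4 CPM and *Twist1* 171 and 71.7 CPM. *Prrx2* had no count in *tuft*. Those of the prechordal plate, notochord and floor plate, near which *Dkk1* is known to be expressed, were called higher for 1 (*Shh*) of 5 tested. They summed to 111 and 42.7 CPM, of which *Shh* alone made up 86.6 and 20.6 CPM. *Chrd* and *Gsc* were at 0 in *tuft* and *Noto* at 0 in both libraries. Foregut endoderm markers were called higher for 1 (*Nkx2-1*, 119 and 20.7 CPM) and lower for 1 of 6 tested. They summed to 328 and 198 CPM, with *Hhex* at 0 in *tuft* and *Pyy* in both libraries. Surface ectoderm markers were called higher for 1 and lower for 1 of 6 (779 and 611 CPM), with none at 0. Blood markers were called higher for 3 and lower for 1 of 5 tested (35525 and 3192 CPM), with *Hba-a1* at 0 in both libraries. Most of this sum in *tuft* was *Hbb-y* (16155 and 655 CPM) and *Hba-x* (18461 and 1415 CPM). *Hbb-bh1* (887 and 1083 CPM) was not called, and *Alas2* (5.44 and 33.2 CPM) was the gene called lower. Yolk sac endoderm markers were called lower for 9 of 11 (292 and 2314 CPM), with *Apoa4* and *Fgb* at 0 in *tuft*. Endothelial markers were called lower for 3 and higher for 1 of 6 (98.1 and 287 CPM), with *Pecam1* at 0 in *tuft*. The part of these differences in the fold changes of the WNT inhibitors was not tested.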

How the data were processed

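The authors selected poly-A RNA and read it from one end (Ion Proton). Reads were trimmed with PRINSEQ and aligned to mm10. The submitters' processing notes list TopHat2 2.0.14, Bowtie2 2.2.5 and HTSeq. The deposited values are raw counts per gene symbol. The strand setting, the overlap mode and the gene models of the counting are not given in the sources used here. Alignments that were not unique made up 59.2% of the entries in *tuft* and 51.4% in wild type and carry no gene. The 5 summary lines stayed outside totals.

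TMM factors came from edgeR 4.0.16 in R 4.3.3 (*tuft* relative to wild type 0.761). Intervals (exact, Clopper-Pearson) were computed with scipy 1.17.1 in Python 3.11.15. Levels are counts per 1000000 counts on genes (CPM). NOISeq-sim, the program of the paper's methods, compares with libraries it simulates and was not used. Normalization (4 alternatives), the rule for calls and the minimum of counts were varied.

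The members and the lists were chosen with earlier results of these data known. Named genes are the 10 members, *Tet1*, every called gene among other inhibitors and β-catenin targets, the highest and lowest called gene with at least 100 counts of other pathway lists, and markers. Promoter windows and positions come from RefSeq (GRCm38.p6), in which 22550 of 24062 symbols were found, and transcript lengths from GENCODE vM1 (NCBIM37), with all 10 members found. No coordinates were moved between builds.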

Additional observations from a re-analysis of the deposited data

How the results depend on the processing

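With library totals alone, 3 of the 10 genes were called higher (*Dkk1*, *Dkk2* and *Wif1*) and 12.4% of all genes tested, against 6 and 17.4% with TMM. When the whole interval had to lie past 4-fold, 2 were called higher (*Dkk2* and *Wif1*) and 6.94% of all genes tested. Both directions together, 3188 of all genes tested were called, against 6605 by the 2-fold rule. No member was called lower under any of the 4 normalizations or the 4 other rules and filters tried. Of 40 fold changes recomputed under the other normalizations, 39 kept their sign, and the exception was *Kremen1* with library totals alone (log2 fold change -0.32). A minimum of 100 counts left *Dkk2*, *Sfrp5* and *Wif1* untested. Each genotype has 1 column of counts from pooled RNA, so the spread between embryos is unknown, and low wild-type counts limit the precision for *Wif1* and *Dkk2*. No paired analysis was possible because there is 1 column of counts per genotype, without a replicate number. For the same reason no replicate could be left out.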

Other observations

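WNT pathway genes with few counts in wild type had values in both directions. *Sfrp4*, *Sost*, *Shisa3*, *Wnt2* and *Wnt11* had no count in *tuft* and 12 to 19 counts in wild type. *Wnt10b*, a WNT ligand gene, had 27 *tuft* counts and 2 wild-type counts, a fold change of 39.3 (9.88 to 341). *Rspo4*, an R-spondin gene, reached 61 against 10 counts, with a fold change of 17.8 (9.03 to 38.9). In the opposite direction, *Wnt9a* had 1 and 74 counts (0.0394, 0.000983 to 0.226), and *Wnt1* had 57 wild-type counts but none in *tuft* and was at least 6.52-fold lower with 3 counts as the limit. *Lgr5*, an R-spondin receptor and β-catenin target, gave 77 and 82 counts, with a fold change of 2.73 (1.98 to 3.78) without a call. These genes were named after their values had been seen.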
